A study of Saccharomyces cerevisiae with 6 samples.

Results

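The small subunit processome is the large nucleolar particle that forms on the 5′ part of the pre-rRNA while RNA polymerase I (Pol I) is still transcribing it, and in which the 18S rRNA of the 40S ribosomal subunit is folded, modified and cut free. It is built in steps from preformed complexes. UtpA binds the 5′ external spacer first, followed by UtpB and the U3 snoRNP, whose snoRNA pairs with the pre-rRNA, and then by the Mpp10 complex, enzymes and late factors. The genes of its proteins are themselves transcribed by RNA polymerase II (Pol II), and in yeast they belong to the ribosome biogenesis regulon, a large set of genes that move together with growth.

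The 39 genes described here are a fixed list of proteins for 18S rRNA processing and 40S subunit assembly. They were chosen by name, with earlier results of these data known, out of 6389 annotated genes counted outside the rDNA. Native elongating transcript sequencing (NET-seq) sequences the 3′ ends of RNAs that are held by a purified polymerase. The data were 6 libraries of *Saccharomyces cerevisiae*, 3 from the WT strain, whose Pol I subunit Rpa135 carries an HA tag, and 3 from *rpa12Δ*, a derivative of the same tagged strain that lacks the whole *RPA12* gene for the A12.2 subunit of Pol I. Both strains grew in rich medium (YEPD) to early log phase, and complexes were recovered from frozen lysates with anti-HA beads. How many independent deletion isolates were used is not given in the sources used here, and the study describes the libraries as biological triplicates while the labels do not say how their cultures were started. The p-values measure the spread between these libraries. The libraries are enriched for Pol I, and the share of the read ends in these Pol II genes that came from an elongating polymerase was not tested.

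Depth differed between the strains. The WT libraries held 4344302 to 6755222 reads and the *rpa12Δ* libraries 13588526 to 14634449, of which 24.6 to 27.3% and 33.2 to 34.6% lay outside the rDNA. The level of a gene is given as read ends per 1000000 reads outside the rDNA (RPM), counted on the strand of its transcript. Such a share cannot tell fewer RNAs of the gene from more of the other RNAs. Nor can it tell fewer RNAs in each cell from fewer cells that hold them. The 100 highest genes took 69.6 to 72.1% of these reads in WT and 73.8 to 77.6% in *rpa12Δ*. Across the 2902 genes with a mean of at least 10 RPM, Spearman's rho was 0.937 to 0.947 between WT libraries, 0.945 to 0.973 between *rpa12Δ* libraries and 0.850 to 0.894 between strains. The label of the deletion was checked on *RPA12* itself, which had 8, 9 and 3 reads in the WT libraries and 0, 0 and 1 in the *rpa12Δ* libraries. A second difference between the strains was seen in the mating-type markers. All 6 a-specific genes, which cells of mating type a express, were higher in *rpa12Δ* in the limma fit over all 6260 genes with reads, in which 2.76% of genes were called higher and 13.4% lower, and the pheromone receptor gene *STE2* had 4, 5 and 5 reads in WT against 421, 340 and 354. None of the 3 alpha-specific genes with reads was called. Effects of the deletion and of other differences between the strains cannot be told apart.

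All 39 genes had reads in every library, from 2 to 299 per gene in WT and from 16 to 1115 in *rpa12Δ*. None overlapped another annotated gene that was counted. Their reads summed to 2534, 1975 and 1719 in WT and to 9178, 7408 and 7254 in *rpa12Δ*. The strand opposite to the transcript, counted in the same way, held 0.759% ± 0.213 of the reads of these genes in WT and 0.330% ± 0.10 in *rpa12Δ* (SD, n = 3), against 1.84% ± 0.145 and 1.95% ± 0.168 over all protein-coding genes. The gene with the most opposite reads was *UTP30*, with 28 in the 6 libraries together, and 12 genes had none. Distinct read intervals, each counted once, came to 91.9% ± 4.09 of the number of reads of these genes in WT and 91.5% ± 4.43 in *rpa12Δ*. Over all reads outside the rDNA they came to 23.0% ± 1.09 and 16.2% ± 0.900. PCR copies are not independent molecules, and the spread between libraries, not the number of reads, was used as the error. The ± values are SDs between libraries, while limma drew the variance of each gene toward a trend over all tested genes.

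Levels were compared between genes only per length, as RPM per kb of the annotated coding length. In WT, 4 of the 5 U3 snoRNP genes stood at the top. *SNU13*, for the protein that binds the U3 snoRNA and also the U4 snRNA, was at 81.1 ± 8.41 RPM per kb in WT, and *NOP1*, for the methyltransferase fibrillarin, was at 69.6 ± 3.38 (SD, n = 3). The ranges of this pair overlapped, at 71.7 to 87.9 and 66.6 to 73.3 RPM per kb. *NOP56* and *NOP58*, for the paired core proteins of the same class of snoRNP, followed at 42.1 ± 9.01 and 39.5 ± 2.77 and did not differ beyond their spread either. *RRP5* and *NSR1* came next in WT, at 31.8 ± 4.00 and 30.3 ± 5.24 RPM per kb. *RRP12*, *UTP10* and *UTP20*, for long helical-repeat proteins, lay together between 20.4 and 21.7 RPM per kb in WT, and their ranges overlapped. The other 30 genes lay between 5.14 and 16.6 RPM per kb in WT. Among these was *RRP9*, for the protein that is particular to the U3 snoRNP, at 11.02 ± 2.14, far below the 4 proteins that U3 shares with other box C/D snoRNPs. The lowest means in WT were those of *UTP30* (5.14 ± 2.66), *UTP6* (6.70 ± 1.597) and *IMP4* (6.79 ± 2.54), whose ranges overlapped. In *rpa12Δ* the U3 snoRNP pair *NOP1* (83.2 ± 5.89) and *SNU13* (82.6 ± 4.25) again led, and *NSR1* stood at 56.8 ± 1.82 RPM per kb, above *NOP58* at 46.3 ± 4.96.

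**Figure D1:**
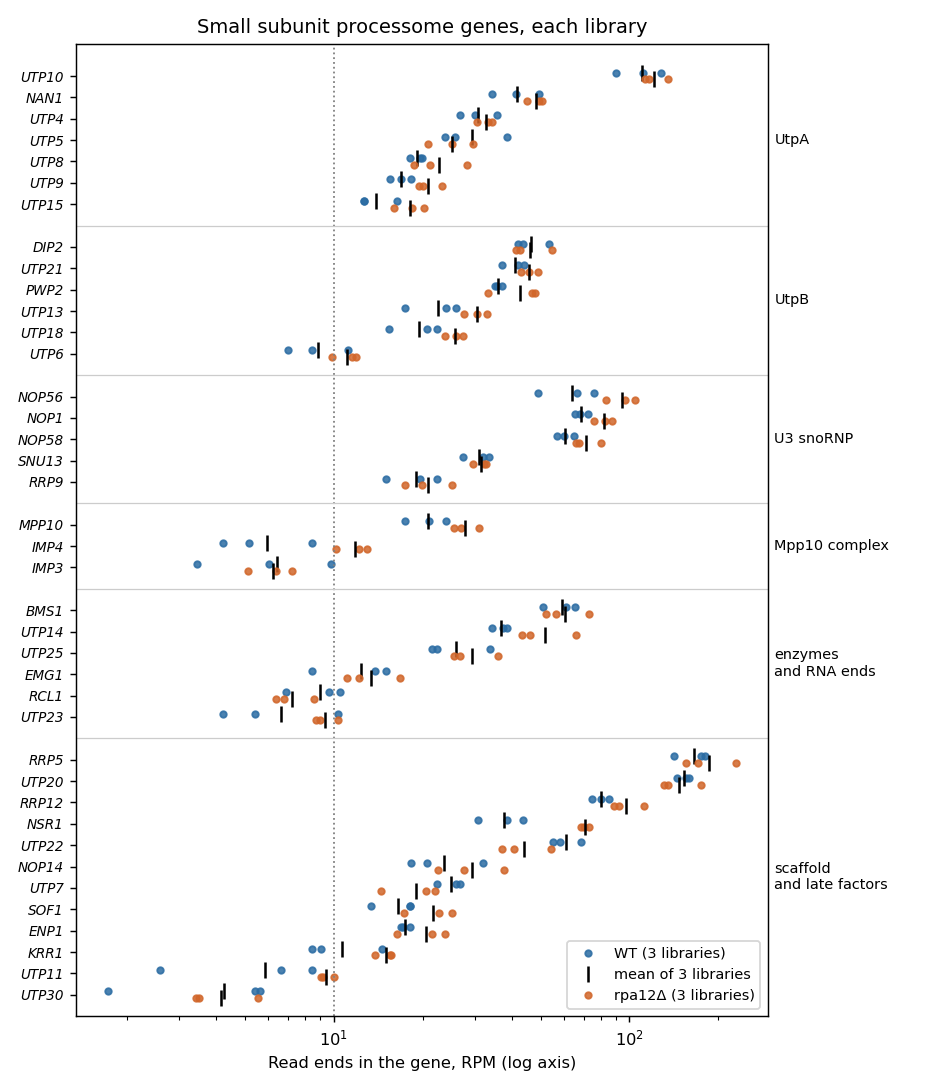
Read ends in each of the 39 genes, in RPM on a log axis, with 1 point per library (blue, WT; orange, *rpa12Δ*), a bar at the mean of 3 libraries and a dotted line at the 10 RPM needed for the test. Genes are grouped by complex, and the orange points of *NSR1* (68.6 to 73.1 RPM) lie wholly to the right of the blue ones (30.8 to 43.8 RPM).

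The strains were compared for each gene with limma on log2(RPM + 1), in 1 fit over all 2902 genes that passed 10 RPM, with Benjamini-Hochberg adjustment over all of them. Of the 39 genes, 32 passed this filter. In this fit *NSR1* and *NOP56* were higher in *rpa12Δ* and no gene of the list was lower, while of all tested genes 5.38% were called higher, 25.7% lower and 31.1% in either direction. The 2 calls among 32 are close to the share called higher over all genes. The median difference of the 32 genes was 0.22 on the log2 scale (0.13 without *rpa12Δ* replicate 1), with 27 values above 0 and 5 below, and the median of all tested genes was −0.26. All differences below are on the log2(RPM + 1) scale, which understates the change of low genes, and an exact permutation test of 3 libraries against 3 cannot give a two-sided p below 0.1 for any single gene.

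The count of calls turned on the scaling. Scaled by medians of ratios, which takes the middle gene as the reference in place of all reads, 482 genes (16.7%) were called higher and 505 (17.5%) lower in limma, 34.2% in either direction, where RPM gave 156 and 747, and the median of all genes moved from −0.26 to 0.0035. Of the 33 listed genes tested on that scale, 19 were higher and none was lower, with a median of 0.49. The 19 were *UTP9*, *UTP10*, *UTP15* and *NAN1* of UtpA, *PWP2*, *UTP13*, *UTP18* and *UTP21* of UtpB, *NOP1*, *NOP56* and *NOP58* of the U3 snoRNP, and *MPP10*, *UTP14*, *SOF1*, *KRR1*, *NOP14*, *RRP5*, *RRP12* and *NSR1*. With the 100 highest genes left out of the denominator, 10.3% of genes were called higher and 11.6% lower, and of the 39 listed genes 19 were higher and none lower. Per protein-coding reads, 18 of the 39 were higher and none lower, where 10.2% of 5132 genes were higher and 11% lower (21.2% in either direction). Per all reads of the library, rDNA included, 11 of the 15 listed genes that passed the filter were higher and none lower, where 34.5% of 1237 genes were higher and 18.2% lower (52.7% in either direction). Counting each distinct read interval once, which changes the denominator by construction, called 32 of the 39 higher and none lower, where 16% of 5270 genes were higher and 8.44% lower. The median of the listed genes lay 0.48 above that of all genes under RPM. This distance was 0.50 per protein-coding reads, 0.49 without the 100 highest genes and 0.485 with medians of ratios. It was 0.37 per all reads and 0.56 with distinct intervals. A scaling shifts all genes nearly alike, but the genes that passed the filter changed with it.

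**Figure D2:**
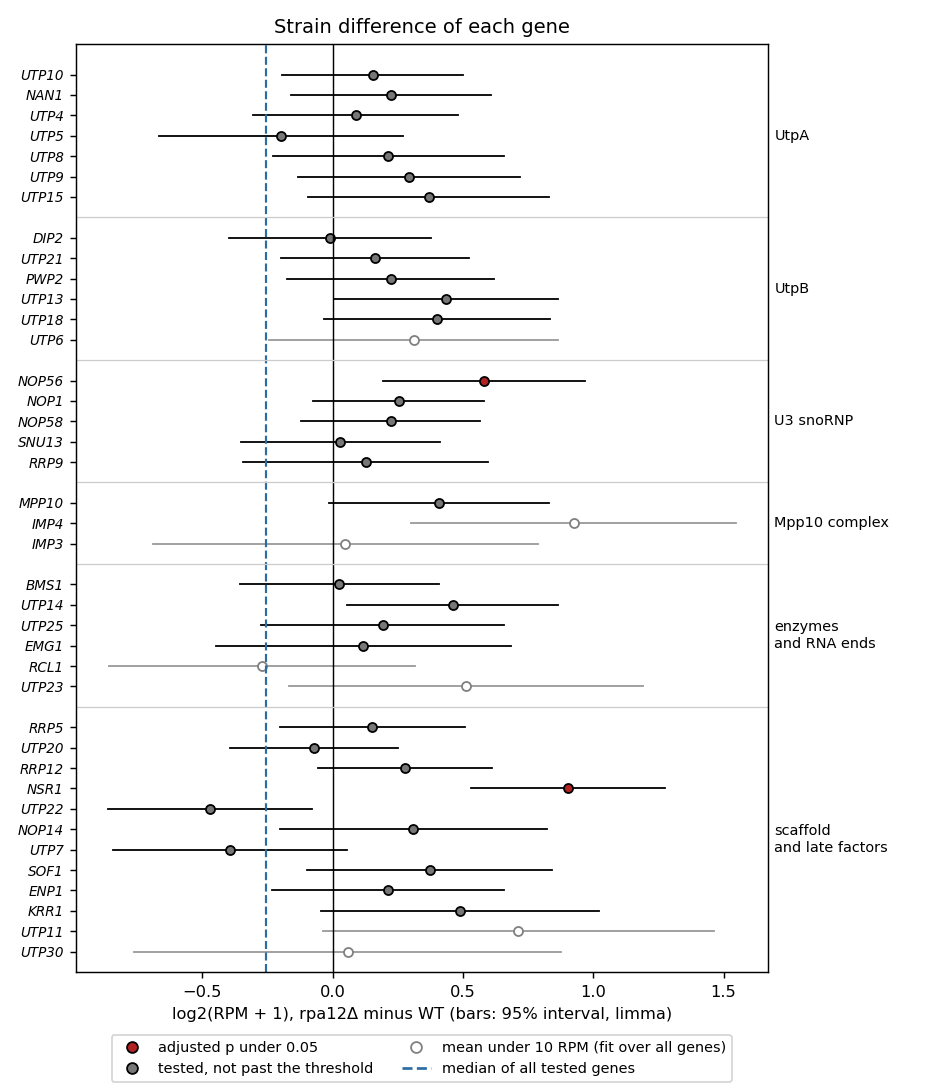
Strain difference of each of the 39 genes as log2(RPM + 1), *rpa12Δ* minus WT, with 95% intervals from limma. Red points passed the threshold (*NSR1* at 0.90 and *NOP56* at 0.58), open points are genes under 10 RPM taken from the fit over all genes with reads, and the dashed line is the median of all tested genes at −0.26.

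UtpA, the complex that binds nascent pre-rRNA first and whose subunits are also needed for full rDNA transcription in yeast, showed no call among its 7 tested genes, whose median difference was 0.21. *UTP10*, the gene of its largest subunit (chromosome X, 212000 to 217309), had 111.3, 90.3 and 127.9 RPM in WT replicates 1 to 3 and 134.6, 113.2 and 116.5 RPM in *rpa12Δ*. The strains overlapped, and the difference was 0.15 (95% interval −0.19 to 0.50, limma adjusted p = 0.493). *UTP15* (chromosome XIII, 454015 to 455556), for a WD-repeat subunit, showed the largest difference of the complex, with 12.6, 12.6 and 16.3 RPM in WT and 18.3, 20.1 and 15.9 RPM in *rpa12Δ*. The highest WT library lay above the lowest *rpa12Δ* library, and the difference of 0.37 (SE 0.22, limma adjusted p = 0.215) did not pass. *UTP5* (chromosome IV, 1267471 to 1269402), for another WD-repeat subunit, had the only negative value, from 38.5, 23.8 and 25.7 RPM in WT and 29.6, 25.03 and 20.8 RPM in *rpa12Δ*. WT replicate 1 stood apart from the other libraries here, the difference was −0.20 (SE 0.22, limma adjusted p = 0.517), and it was 0.06 under medians of ratios. *UTP4*, *UTP8*, *UTP9* and *NAN1* had differences of 0.09 to 0.29, and only *UTP9* had all *rpa12Δ* libraries (19.5 to 23.1 RPM) above all WT libraries (15.4 to 18.2 RPM).

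UtpB, a complex mostly of WD-repeat proteins that joins the 5′ spacer to U3, had 5 tested genes with a median difference of 0.22 and none called. *DIP2* (chromosome XII, 399657 to 402488) had the most read ends of the complex, not corrected for length, and the difference closest to 0, with 53.5, 42.0 and 43.8 RPM in WT and 54.7, 41.3 and 42.5 RPM in *rpa12Δ*. These libraries overlapped over nearly their whole range, and the difference was −0.01 (95% interval −0.40 to 0.38, limma adjusted p = 0.968), or 0.25 under medians of ratios. *UTP13* (chromosome XII, 579318 to 581771) had 17.4, 25.9 and 24.0 RPM in WT and 32.9, 30.6 and 27.6 RPM in *rpa12Δ*. Its strains did not overlap, and the difference of 0.43 (SE 0.20) did not pass after adjustment (limma adjusted p = 0.116). It was 0.27 without WT replicate 1, the lowest library, and 0.22 with all libraries thinned to the same depth. Under medians of ratios it was 0.70 and passed (limma adjusted p = 0.0046). *UTP18*, whose protein recruits the exosome helicase to the 5′ spacer, did not overlap either, at 15.4 to 22.3 RPM in WT and 23.8 to 27.4 RPM in *rpa12Δ*, with a difference of 0.40. *UTP21* and *PWP2* had differences of 0.16 and 0.22, and *UTP6*, with a mean of 9.97 RPM just under the filter, had 0.31 in the fit over all genes.

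The U3 snoRNP proteins carry the U3 snoRNA, and 4 of the 5 also sit on the other box C/D snoRNAs. *NOP56* (chromosome XII, 546097 to 547611) had 75.8, 66.5 and 48.9 RPM in WT and 104.3, 96.3 and 83.4 RPM in *rpa12Δ*. Every *rpa12Δ* library lay above every WT library, the means were 63.7 ± 13.6 and 94.7 ± 10.6 RPM (SD, n = 3), and the rise of 0.58 (SE 0.18, limma adjusted p = 0.024) passed. It passed no longer without WT replicate 3 (0.40, limma adjusted p = 0.121) or without *rpa12Δ* replicate 2 (0.57, limma adjusted p = 0.101). Its partner *NOP58* had 60.1, 65.1 and 56.6 RPM in WT and 79.8, 66.1 and 67.3 RPM in *rpa12Δ*, which also did not overlap. Its difference of 0.22 (SE 0.16, limma adjusted p = 0.309) was smaller and did not pass, and whether *NOP56* and *NOP58* differ from each other was not tested. *NOP1*, at 65.6 to 72.1 RPM in WT and 75.7 to 87.2 RPM in *rpa12Δ*, had a difference of 0.25 with no overlap. *SNU13* (chromosome V, 101943 to 102323) had 31.9, 27.3 and 33.5 RPM in WT and 29.6, 32.1 and 32.7 RPM in *rpa12Δ*, and *RRP9* had a difference of 0.13. The strains could not be told apart for *SNU13*, whose difference was 0.03 (95% interval −0.35 to 0.41, limma adjusted p = 0.917).

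The Mpp10 complex brings Mpp10, Imp3 and Imp4 to the U3 pairing with the pre-rRNA, and only *MPP10* reached 10 RPM. *MPP10* (chromosome X, 438865 to 440646) had 17.4, 21.0 and 24.0 RPM in WT and 31.1, 27.0 and 25.5 RPM in *rpa12Δ*, with no overlap. Its difference was 0.41 (SE 0.20, limma adjusted p = 0.132). *IMP4* (chromosome XIV, 485607 to 486479), named here after its values were seen, had 8.42, 4.20 and 5.15 RPM in WT and 13.0, 12.2 and 10.2 RPM in *rpa12Δ*. In the limma fit over all genes with reads it was the third gene of the list to be called, with 0.92 (SE 0.29, adjusted p = 0.0444), on 14, 6 and 6 reads in WT and 63, 57 and 48 in *rpa12Δ*. *IMP3*, the other partner, had 3.43 to 9.80 RPM in WT and 5.13 to 7.22 RPM in *rpa12Δ*, and its difference of 0.05 had a 95% interval of −0.69 to 0.79 that leaves its direction unresolved at this depth.

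The enzymes and the proteins that act on the RNA ends had 4 tested genes and no call. *BMS1* (chromosome XVI, 139620 to 143171), for a GTPase, had the most read ends of them, not corrected for length, with 51.1, 60.9 and 65.2 RPM in WT and 73.1, 52.0 and 56.5 RPM in *rpa12Δ*. The strains overlapped, with a difference of 0.03 (95% interval −0.36 to 0.41, limma adjusted p = 0.929). *UTP14* (chromosome XIII, 83090 to 85789), whose protein activates the helicase that removes U3 from the pre-rRNA, had 37.3, 34.3 and 38.6 RPM in WT and 66.1, 46.0 and 43.3 RPM in *rpa12Δ*. All *rpa12Δ* libraries were above all WT libraries, with replicate 1 well above the other two, and the difference of 0.46 (SE 0.19) missed the threshold (limma adjusted p = 0.0787). It was 0.28 without *rpa12Δ* replicate 1, and it passed with reads of at least 25 nt (0.59, limma adjusted p = 0.0446). *UTP25* and *EMG1*, the latter for a methyltransferase of the 18S rRNA, had differences of 0.19 and 0.12. *RCL1*, for the partner of Bms1, and *UTP23* were under 10 RPM, with differences of −0.27 (95% interval −0.86 to 0.32) and 0.51 (95% interval −0.17 to 1.19) in the fit over all genes.

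The scaffold and late factors were the widest group, with differences from −0.47 to 0.90 over 10 tested genes. *NSR1* (chromosome VII, 806412 to 807656), for the yeast protein related to nucleolin, had 38.5, 30.8 and 43.8 RPM in WT and 73.1, 70.4 and 68.6 RPM in *rpa12Δ*. The *rpa12Δ* libraries lay within a narrow band above all WT libraries, with means of 37.7 ± 6.52 and 70.7 ± 2.26 RPM (SD, n = 3). The rise of 0.90 (SE 0.18, limma adjusted p = 0.00103) was the largest of the tested genes in the list, and it passed in all 25 alternatives tried, with 0.77 to 1.02 when each library was left out in turn. *UTP22* (chromosome VII, 662358 to 666071), whose protein also joins a complex with a regulator of ribosomal protein genes, had the lowest value, with 58.3, 55.3 and 68.7 RPM in WT and 54.1, 40.6 and 37.1 RPM in *rpa12Δ*. All *rpa12Δ* libraries were below all WT libraries, and the difference of −0.47 (SE 0.18) missed the threshold (limma adjusted p = 0.0652), which it passed without *rpa12Δ* replicate 1 (−0.63, limma adjusted p = 0.00627) and with a filter of 30 RPM (limma adjusted p = 0.0489). It was −0.20 (limma adjusted p = 0.362) under medians of ratios and −0.09 per all reads. *UTP7*, for a WD-repeat protein, was the other gene with all *rpa12Δ* libraries (14.4 to 22.0 RPM) below WT (22.4 to 26.6 RPM), at −0.39.

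*RRP5* (chromosome XIII, 725934 to 731123), for an RNA-binding protein that both ribosomal subunits need, had the most read ends of the list, with 179.8, 141.4 and 174.2 RPM in WT and 229.5, 170.9 and 155.2 RPM in *rpa12Δ*. Replicate 1 was again the highest *rpa12Δ* library, the strains overlapped, and the difference was 0.15 (95% interval −0.20 to 0.51, limma adjusted p = 0.513). *UTP20*, at 144.9 to 158.8 RPM in WT and 130.5 to 174.1 RPM in *rpa12Δ*, had a difference of −0.07. *RRP12*, for a late factor that takes part in export of the subunits, did not overlap, at 74.7 to 85.4 and 88.8 to 111.5 RPM, with a difference of 0.28. *SOF1*, *KRR1*, *ENP1* and *NOP14* had overlapping libraries and differences of 0.21 to 0.49. *UTP11* and *UTP30* were under 10 RPM, with 0.71 (95% interval −0.04 to 1.46) and 0.06 (95% interval −0.76 to 0.88) in the fit over all genes.

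Over the whole list, 12 genes had all *rpa12Δ* libraries above all WT libraries and 10 of them were among the 32 tested, while 10.1% of all tested genes were separated in this direction. For 2 genes, *UTP7* and *UTP22*, all *rpa12Δ* libraries lay below WT, a separation seen in 33.5% of all tested genes. The other 25 genes overlapped. The sum over the list was 1524, 1383 and 1475 RPM in WT and 1889, 1585 and 1540 RPM in *rpa12Δ*, or 1461 ± 71.9 against 1671 ± 190 RPM. The log2 difference of the sum was 0.19, and 0.098 without *rpa12Δ* replicate 1, the highest library. As a share of the reads in protein-coding genes, the sum was 0.565, 0.552 and 0.580% in WT and 0.819, 0.768 and 0.769% in *rpa12Δ*, and the strains overlapped neither in these shares nor in the RPM sums, where the highest WT library (1524) was just below the lowest *rpa12Δ* library (1540).

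The other genes of ribosome assembly, from lists written with earlier results of these data known, were read from the same fit. Of 42 other small subunit assembly genes, 25 were tested, none was called in limma under RPM and the median was 0.24, with 14 of 24 higher and none lower under medians of ratios. Of 64 genes of 60S subunit assembly, 51 were tested, of which 11 were higher and none lower (5.38% of all genes were higher), with a median of 0.39. Under medians of ratios 35 of 52 were higher (16.7% of all genes), with a median of 0.66, and without the filter 6 of 64 were higher (2.76% of all genes). These 11 included *PUF6* (0.76, limma adjusted p = 0.00642), *NOP7* (0.73, limma adjusted p = 0.00711) and *NOP4* (0.70, limma adjusted p = 0.00812). Of 10 tested genes for Pol I subunits, *RPA190* for the largest subunit (0.94, limma adjusted p = 0.000825) and *RPO26* for a subunit shared with the other polymerases (0.86, limma adjusted p = 0.0162) were higher, and 5 of 10 were higher under medians of ratios. The 56 *RPS* genes, which encode the proteins of the 40S subunit itself, had a median of −0.19 under RPM. Of these genes 4 were called lower and none higher (25.7% and 5.38% of all tested genes). Under medians of ratios their median was 0.08, with 3 higher and 1 lower (16.7% and 17.5% of all tested genes). The sign of their median followed the scaling. Whether the list differs from any of these groups was not tested.

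**Figure D3:**
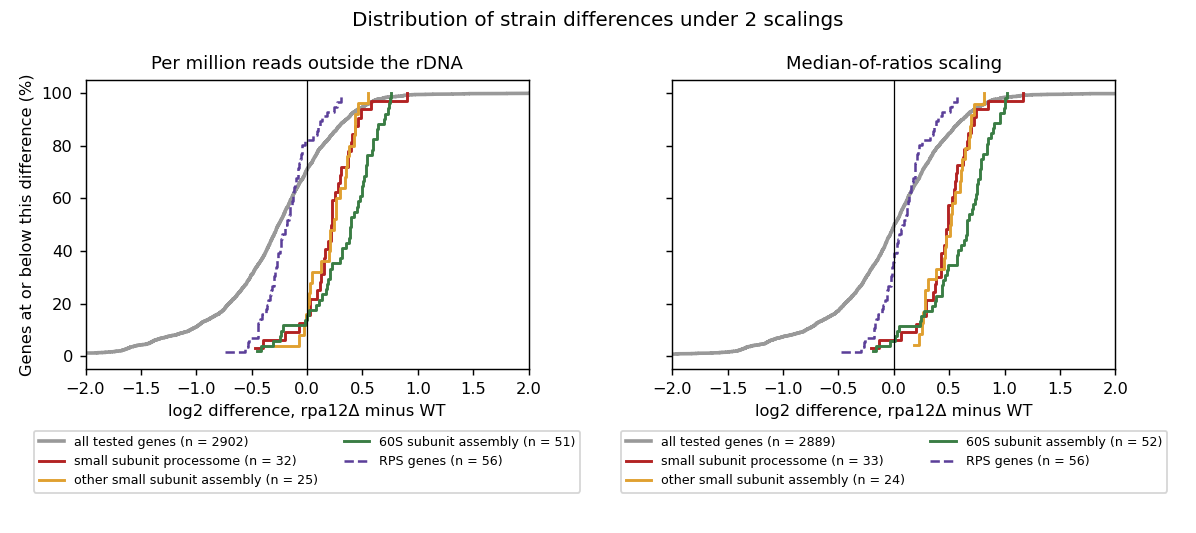
Cumulative share of genes (%) at or below each log2 difference, *rpa12Δ* minus WT, under RPM (left) and medians of ratios (right), for all tested genes, the small subunit processome, other small subunit assembly, 60S subunit assembly and *RPS* genes. The red curve of the processome genes lies right of the grey curve of all genes in both panels except near the top. There the red curve ends at 0.90 (left) and 1.17 (right), while the grey curve runs further right. The medians are 0.22 and −0.26 on the left and 0.49 and 0.0035 on the right.

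Averaged over the listed genes, the read ends were spread nearly evenly. Over genes with at least 20 reads in a library, the first 20% of the coding length held 20.2% ± 0.922 of a gene's read ends in WT and 19.7% ± 0.867 in *rpa12Δ*, and the last 20% held 19.9% ± 0.486 and 20.2% ± 0.982 (SD, n = 3). In single libraries the 20% sections between them held from 18.0% (WT replicate 1) to 22.8% (*rpa12Δ* replicate 1). Over all protein-coding genes the first 20% held 18.4% ± 0.431 and 19.4% ± 0.248, and the last 20% held 21.1% ± 0.429 and 20.7% ± 0.196. The strains differed by less than the spread between libraries at both ends of the listed genes. With this cut, 28 to 31 listed genes entered in a WT library and 38 or 39 in an *rpa12Δ* library. Over all protein-coding genes, 1898 to 2512 and 3658 to 4033 entered, so the strain means do not cover the same genes.

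**Figure D4:**
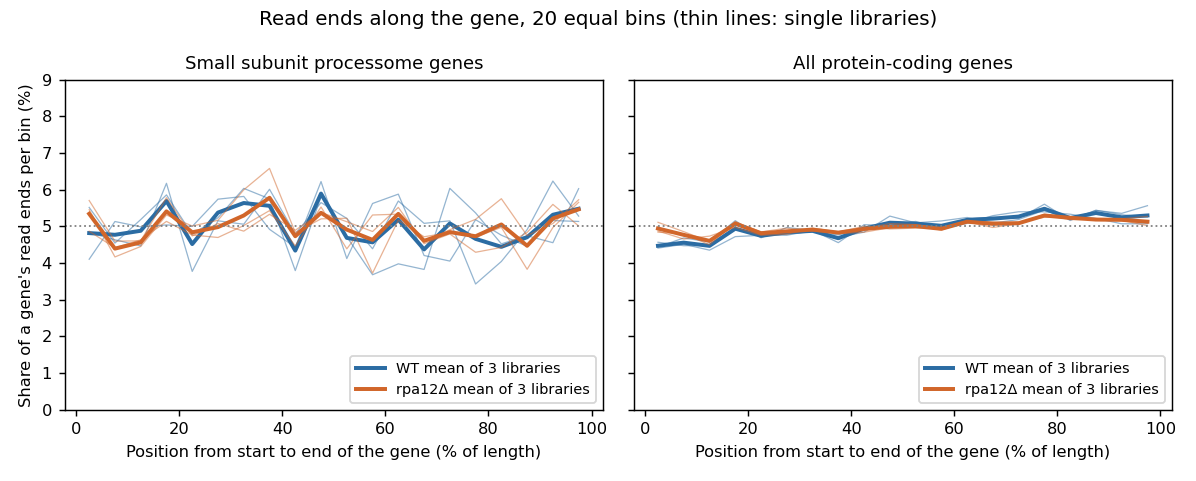
Share of a gene's read ends (%) in each of 20 equal bins from its start to its end (% of length), for the small subunit processome genes (left) and all protein-coding genes (right). Thick lines are strain means, thin lines are libraries and the dotted line is an even spread, around which both strains run from the first 20% of the length (20.2% of read ends in WT, 19.7% in *rpa12Δ*) to the last (19.9% and 20.2%).

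A few genes held single positions with a large share of their reads, which were singled out after the values were seen. On the mean of the 6 library shares *UTP18* (28.3%) and *SOF1* (28.0%) came first, and over pooled reads *SOF1* (31.4%) lay above *UTP18* (30.1%). In *UTP18*, position 37 of the coding sequence (chromosome X, 312670) held 32.4, 18.2 and 29.2% of the gene's read ends in the WT libraries and 39.7, 34.4 and 16.1% in the *rpa12Δ* libraries. In *SOF1*, position 572 (chromosome XII, 128094) held 26.7, 21.1 and 23.8% in WT and 39.3, 30.2 and 27.2% in *rpa12Δ*. These positions stood out in every library of both strains. In WT they rested on 12, 4 and 7 reads in *UTP18* and on 8, 4 and 5 reads in *SOF1*. For *SOF1* all *rpa12Δ* shares were above WT, and how often the highest positions of other genes separate in this way was not counted. In *UTP14*, position 451 (chromosome XIII, 83540) held 21.0, 8.16 and 13.3% in WT and 21.8, 22.3 and 6.86% in *rpa12Δ*, and in *NOP56* position 473 (chromosome XII, 546569) held 15.1, 1.05 and 8.77% and 20.3, 12 and 6.36%. The shares in *NOP56* and *UTP14* varied as much within a strain as between the strains. *ENP1*, at position 1093 (chromosome II, 713363), was the other gene with a mean share above 10%. The reads that ended at these 5 positions had 23 to 39 different lengths per position, from 20 to 74 nt, and 84.1 to 93.8% had a mapping quality of at least 10. With the reads of all 6 libraries pooled, such positions were less frequent in the list than over all protein-coding genes. These sets were not matched for gene length or number of reads. Among genes with at least 300 reads, the highest position held a median of 2.99% of the reads in 30 listed genes and 6.15% in 1690 protein-coding genes, and it held at least 10% in 6 of the 30 and in 702 of the 1690 (41.5%).

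**Figure D5:**
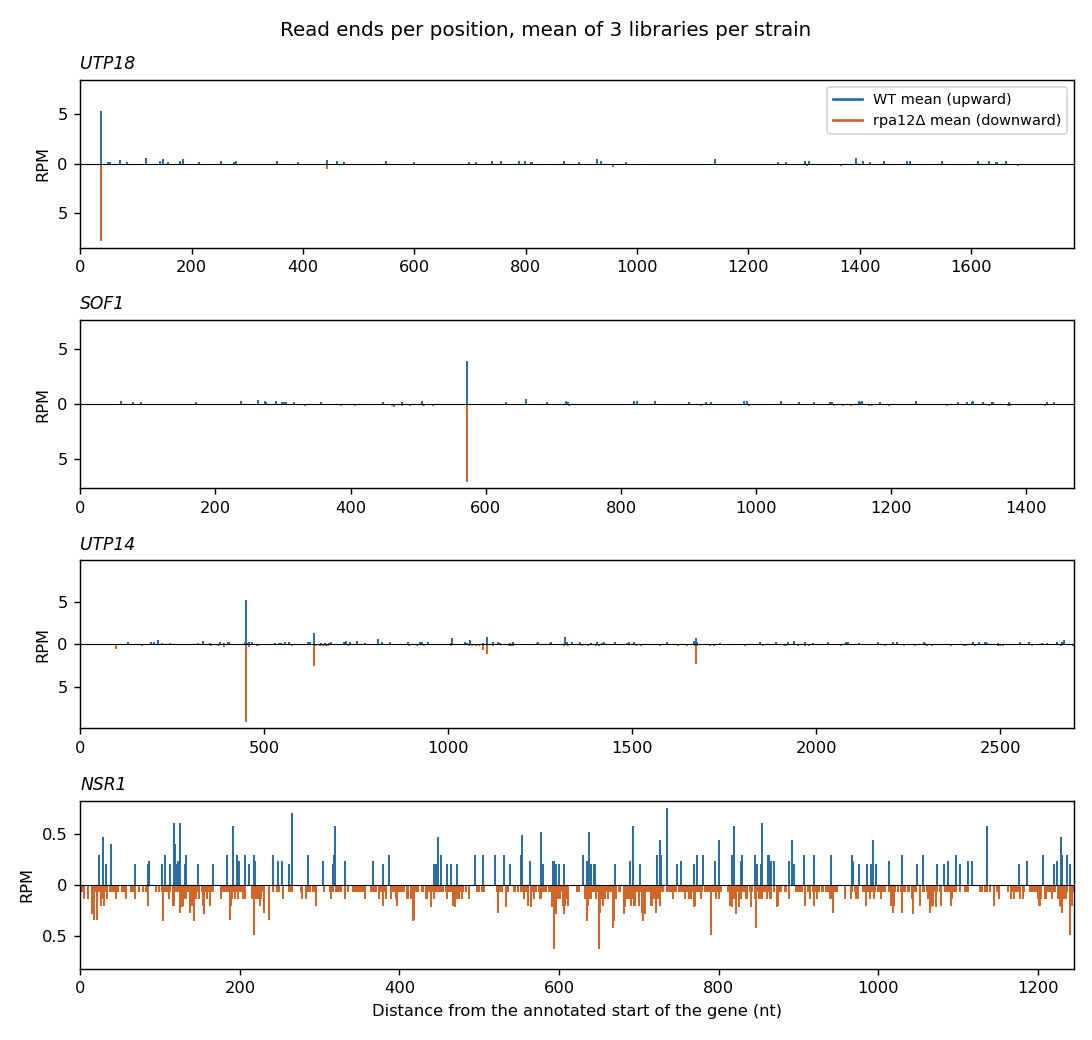
Read ends at each position of *UTP18*, *SOF1*, *UTP14* and *NSR1*, in mean RPM of 3 libraries (WT upward, *rpa12Δ* downward), against the distance from the annotated start in nt. A single peak dominates *UTP18* (position 37), *SOF1* (position 572) and *UTP14* (position 451), while the read ends of *NSR1* lie along the whole gene on a finer scale.

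When the highest position of each gene was left out, an alternative chosen after seeing the data, *NSR1* stood at 0.92 (limma adjusted p = 0.000103) and *NOP56* at 0.51 (limma adjusted p = 0.0149), and both were still higher. *UTP22* then passed as lower, with −0.51 (limma adjusted p = 0.0161). The median of the listed genes was 0.21 on these reads.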

How the data were processed

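The authors trimmed and aligned the reads, and the tools named in the submitters' processing notes are bcl2fastq 2.18.0.012, Trim Galore 0.4.1, BWA 0.6 and SAMtools 1.3.1. The deposited files list the alignments one by one by position and strand, and their score column holds a mapping quality. The genome build is not given in the sources used here, and chromosome lengths fit R64, whose RefSeq gene table supplied coordinates and names. Read 5′ ends on the strand opposite to the gene, which are RNA 3′ ends, were counted per gene in Python 3.11.15 (pandas 2.3.3) and divided by the reads outside chromosome XII 451418 to 490526. The pseudocount was 1 RPM. Fits used R 4.3.3 and limma 3.58.1 with a variance trend and a threshold of 0.05. On simulated data, 90 of 94 genes changed by 1 on the log2 scale and 87 of 87 changed by 2 were recovered among 2894 tested genes, and 1 unchanged gene was called. The simulated rises and falls were balanced, and the spread was a single value taken from the WT libraries. No change below 1 was simulated, so recovery of the smaller differences of the listed genes was not tested.

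The genes and lists were chosen with earlier results of these data known. Values in every library are given, in each group of the list, for the gene with the highest mean RPM and those with the largest and the lowest difference. Promoter motifs were planned, and promoters were not analysed here. The 25 alternatives changed the pseudocount, filter, scaling, test, reads, gene ends and libraries. The main fit did not pair the libraries by replicate number. The correlations between libraries of the same number, given below, could not decide whether the numbers mark pairs.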

Additional observations from a re-analysis of the deposited data

How the results depend on the processing

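*NSR1* passed in all 25 alternatives, and *NOP56* failed in 4 of its 25, namely without WT replicate 3, without *rpa12Δ* replicate 2, with reads of at least 25 nt (0.53, limma adjusted p = 0.0527) and with the methods' t-test after Benjamini-Hochberg adjustment (adjusted p = 0.143). Over all genes 903 were called, 536 with a filter of 30 RPM, 408 with the adjusted t-test and 531 to 1242 with 1 library left out, the lowest without *rpa12Δ* replicate 2. Of the list, 2 of 32 were called in the main fit. Per protein-coding reads 18 of 39 were called, 19 of 39 without the 100 highest genes and 19 of 33 with medians of ratios. Per all reads 11 of 15 were called, and 32 of 39 with distinct intervals counted once (none lower). The adjusted t-test called 1 of 32 (408 of 2902 over all genes) and the unadjusted one 4 of 32 (998 of 2902). With 1 library left out, 1 to 3 were called. Replicates of the same number deviated with correlations of 0.17, 0.01 and −0.02, and those of other numbers with −0.23 to 0.24. A fit with the replicate block called 4 of 32, adding *UTP14* and, as lower, *UTP22*, and 1113 of 2902 over all genes. The median of the list was 0.51, 0.50, 0.49, 0.56 and 0.73 in the first 5 of these scalings and counts, and the log2 difference of its sum was 0.47, 0.46, 0.46, 0.57 and 0.69, with 0.13 to 0.26 and 0.10 to 0.25 over libraries left out, both lowest without *rpa12Δ* replicate 1. With distinct intervals the last 20% of the genes held 20.9% in WT. None of the following sign changes concerned a called value, except that *DIP2* passed as higher with distinct intervals. *UTP5* turned to 0.078, 0.068, 0.065 and 0.26 per protein-coding reads, without the 100 highest genes, with medians of ratios and with distinct intervals, and to 0.0083 without WT replicate 1 (libraries left out −0.33 to 0.0083). *DIP2* turned to 0.27, 0.26, 0.25 and 0.54 in the same 4 settings, and to 0.34 per all reads, 0.020 with reads of at least 25 nt, 0.0011 with any overlap, 0.015 without the highest positions and −0.14 to 0.093 with 1 library left out. *SNU13* turned to −0.089 with a mapping quality of at least 10 (libraries left out −0.053 to 0.089), *BMS1* to −0.13 with thinned libraries (−0.12 to 0.13), *RRP5* ranged from −0.012 to 0.27 and *UTP22* turned to 0.077 with distinct intervals. With 1 library left out, *UTP10* ranged from 0.02 to 0.27, *UTP13* from 0.27 to 0.54, *UTP14* from 0.28 to 0.57, *UTP15* from 0.29 to 0.48 and *MPP10* from 0.29 to 0.51. The causes were not tested. WT libraries held fewer reads, so the genes under 10 RPM rested on as few as 2 reads in a library.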
